A study of Mus musculus with 22 samples.

Results

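Embryonic germ (EG) cell lines that were started in serum and moved to 2i were compared with embryonic stem (ES) cell lines in 2i, over all measured genes. The comparison used the 4 arrays titled EG 2is and the 5 titled ES 2i, 9 of the 22 arrays of the study, and 19938 genes. Each array was 1 sample, called a line here. EG 2is lines came from mouse embryos at E8.5, and were started in fetal calf serum (FCS) with leukaemia inhibitory factor (LIF) on mouse embryonic fibroblast feeders and after 48 hours moved to 2i with LIF. The 2i medium adds PD0325901, which blocks MEK, and CHIR99021, which blocks GSK3, to N2B27, and cells in it were kept on laminin. ES 2i lines were grown in that medium. ES lines had been derived either in FCS or in 2i and some were later switched, and which applies to each ES 2i line is not given in the sources used here. Lines used beside these were 4 EG lines kept in FCS, 4 EG lines derived directly in 2i (EG 2i) and 5 ES lines in FCS. The EG lines among them also came from embryos at E8.5. By label, the EG lines in FCS are 1 female and 3 male, and the EG 2i lines 3 female and 1 male. The ES lines in FCS are 2 female and 3 male.

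All groups carry the same strain label, a mixed background of 129SvEv x Oct4-delta-PE-GFP transgenic mice, and the series text calls the embryos genetically identical. The GFP transgene is driven by a fragment of the Oct4 gene. EG 2is lines 1 and 2 are labelled male and lines 3 and 4 female. ES 2i lines 1 and 3 are labelled female and lines 2, 4 and 5 male. All 4 EG 2is arrays belong to the labelled batch 1, as do ES 2i lines 1 and 2, whereas ES 2i lines 3, 4 and 5 belong to batch 2. What the batch stands for is not given. The cell type label reads EGCs on all 22 arrays, the 10 ES arrays included, while titles and source names separate EG from ES, so the title was used. The labels do not say that the samples of a group came from separate cultures, so p-values measure only the spread between these samples.

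EG cells arise in culture from primordial germ cells, the embryonic precursors of eggs and sperm, and ES cells from the inner cell mass of the blastocyst. Both are pluripotent and share the transcription factors Oct4 (Pou5f1), Nanog and Sox2. Blocking MEK and GSK3 while supplying LIF holds mouse pluripotent cells in a naive state, marked by low DNA methylation and uniform expression of naive factors. The comparison asks whether EG lines that reached 2i by way of serum still differ from ES lines in the same medium.

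Values are log2 expression, on which a difference of 1 is 2-fold. Differences are EG 2is minus ES 2i, fitted with limma over all 22 arrays with terms for group, batch and sex, and carry the standard error (SE). Called genes are those with p under 0.05 after Benjamini-Hochberg adjustment over all genes. The 4 EG 2is lines and 5 ES 2i lines differed by little. Limma called 9 genes (0.0451% of all), all 9 lower in EG 2is lines and 0 higher. Without a batch term it called 33, 18 higher and 15 lower, and 5 of the 9 were among them. At an unadjusted p under 0.05 there were 1872 genes (9.39%), 826 higher (4.14%) and 1046 lower (5.25%). A fitted difference of at least 2-fold was found for 20 genes (0.1%), 7 higher (0.0351%) and 13 lower (0.0652%), and Nod1 was the only called gene among them. Of the 9 called genes, 4 (Nod1, Ggct, Apobec1 and C1s1) lie on chromosome 6, which holds 1099 of the genes (5.53%). Chromosomes 4, 7, 15, 17 and 18 held 1 called gene each, and 0 called genes were X-linked.

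The 250 bases upstream of the annotated start of the 4 called genes on chromosome 6 are shown because Nod1 and Ggct are neighbours there. CpG is marked as the site of DNA methylation, and both compared groups were in 2i. The sequences come from RefSeq (assembly GRCm38.p6) and read 5′ to 3′ on the minus strand, with CpG dinucleotides in capitals. They are, in order, chr6:54972613-54972862, chr6:54992868-54993117, chr6:122602445-122602694 and chr6:124542360-124542609.
Nod1: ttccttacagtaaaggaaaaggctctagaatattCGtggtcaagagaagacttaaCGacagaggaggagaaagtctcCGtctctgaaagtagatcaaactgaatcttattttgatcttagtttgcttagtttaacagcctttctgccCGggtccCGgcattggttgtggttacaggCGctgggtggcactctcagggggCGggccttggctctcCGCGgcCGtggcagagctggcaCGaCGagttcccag
Ggct: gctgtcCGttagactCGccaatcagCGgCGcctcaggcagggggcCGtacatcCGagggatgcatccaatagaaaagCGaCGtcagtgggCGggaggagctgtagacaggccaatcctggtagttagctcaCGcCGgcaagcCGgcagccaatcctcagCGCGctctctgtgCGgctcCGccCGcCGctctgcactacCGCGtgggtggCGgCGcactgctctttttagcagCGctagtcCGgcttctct
Apobec1: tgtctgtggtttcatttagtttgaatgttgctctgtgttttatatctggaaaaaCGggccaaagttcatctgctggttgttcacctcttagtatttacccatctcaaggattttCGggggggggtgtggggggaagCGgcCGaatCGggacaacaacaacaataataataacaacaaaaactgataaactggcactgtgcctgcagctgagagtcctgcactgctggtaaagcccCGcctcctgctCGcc
C1s1: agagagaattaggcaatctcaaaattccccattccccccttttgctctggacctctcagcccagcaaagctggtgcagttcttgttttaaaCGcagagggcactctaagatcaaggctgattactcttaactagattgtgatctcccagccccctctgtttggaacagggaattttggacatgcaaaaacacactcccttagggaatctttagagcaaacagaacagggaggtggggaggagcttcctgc

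These windows held 12 CpG for Nod1, 24 for Ggct, 7 for Apobec1 and 1 for C1s1. Such windows were read for 7 of the 9 called genes, all but Pstpip2 and Tstd3, and Nrm had 17 CpG, Fanci 13 and Capsl 6. The median was 12 over the 7 called genes and 11 over the 15614 measured genes for which a window was read (quartiles 3 and 20). GGGCGG, searched on both strands, was in 3 of the 7 windows and in 46.0% of the 15614. CCAAT was in 3 of 7 and in 35.6% of all, and TATAAA in 1 of 7 and in 11.2% of all. Methylation of these windows was not measured here.

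Nod1 encodes a cytosolic receptor that senses bacterial peptidoglycan and starts innate immune signalling. Its levels in EG 2is lines 1 to 4 were 4.38, 4.40, 4.90 and 4.58. In ES 2i lines 1 to 5 they were 7.41, 6.66, 5.33, 5.82 and 5.96. All 5 ES lines lay above all 4 EG lines, and the batch 1 ES lines lay above those of batch 2. The group means were 4.56 ± 0.24 (SD, n = 4) and 6.24 ± 0.81 (SD, n = 5). The fitted difference was −2.39 (SE 0.19, limma adjusted p = 1.58e-06). Nod1 was also the only gene called between batches (0.00502% of all), with batch 2 minus batch 1 at −1.19 (limma adjusted p = 0.00698). On batch 1 arrays alone the difference was −2.47 (limma adjusted p = 7.68e-05), and without a batch term it was −1.69 (0.0382). As a yardstick of background, the Y-linked gene Eif2s3y read 4.64 to 4.76 in female 2i lines and 7.55 to 8.81 in male ones, so a gene absent from the genome can read up to 4.76 on these arrays, although background differs between probe sets. For Nod1, 3 of the 4 EG 2is lines read below that, so no exact fold can be taken from its difference.

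The low level of Nod1 was not limited to the switched lines. EG lines in FCS read 4.46, 4.57, 4.39 and 4.13, and EG lines derived in 2i read 4.37, 4.53, 4.74 and 4.38. ES lines in FCS read 6.21, 6.74, 5.47, 5.35 and 5.41. None of the 12 EG arrays reached the lowest of the 10 ES arrays. Between EG and ES lines in FCS the difference was −2.15 (limma adjusted p = 1.11e-05), and from it the difference in 2i was not shown to deviate (change −0.24, adjusted p = 0.823).

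Ggct, the next measured gene on chromosome 6, encodes gamma-glutamylcyclotransferase, an enzyme of glutathione turnover. EG 2is lines read 6.10, 5.996, 6.42 and 6.22, and ES 2i lines 6.79, 6.92, 6.62, 6.80 and 6.72. The groups did not overlap, and the difference was −0.73 (SE 0.12, limma adjusted p = 0.0254). In FCS it was −0.65, which was not called (adjusted p = 0.168). The other genes within 5 steps of Nod1 or Ggct gave fitted differences of −0.21 to 0.12, with none called. Gars, the neighbour beyond Ggct, encodes glycyl-tRNA synthetase and differed by −0.11 (adjusted p = 0.582), with EG lines at 10.99 to 11.14 and ES lines at 11.14 to 11.23. Znrf2, on the other side of Nod1, differed by −0.04 (adjusted p = 0.954).

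Apobec1, a cytidine deaminase known for editing Apob mRNA, read 6.34, 6.17, 6.28 and 6.34 in EG 2is lines. ES 2i lines read 6.92, 7.12, 6.83, 6.83 and 6.33. ES line 5 lay inside the EG range and the other ES lines above it. The fitted difference was −0.76 (SE 0.11, limma adjusted p = 0.0141), and −0.52 (adjusted p = 0.118) without a batch term. Apobec1 lies beside the genes of 3 pluripotency-associated proteins, and none of these was called. Gdf3 differed by −0.00, Dppa3 by 0.09 and Nanog by 0.00, with adjusted p of 0.999, 0.945 and 0.997.

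C1s1, a serine protease of the complement cascade, read 5.33, 4.92, 5.08 and 4.87 in EG 2is lines and 5.60, 5.99, 5.28, 5.90 and 5.75 in ES 2i lines. Only EG line 1 and ES line 3 crossed. The difference was −0.70 (SE 0.12, limma adjusted p = 0.0254). Its neighbours C1ra, another complement protease, and C1s2, a near copy of C1s1, differed by −0.02 and −0.25 and were not called. Array probes of such near copies can share signal.

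Nrm encodes nurim, a protein of the inner nuclear membrane. It read 8.69, 8.76, 8.28 and 8.25 in EG 2is lines and 8.94, 9.34, 8.85, 9.10 and 9.06 in ES 2i lines. The groups did not overlap, and the difference was −0.63 (SE 0.09, limma adjusted p = 0.00609). Fanci, a Fanconi anaemia protein that acts in the repair of DNA crosslinks, read 8.20 to 8.58 in EG 2is and 8.75 to 9.15 in ES 2i lines, a difference of −0.66 (SE 0.11, adjusted p = 0.0254). Both genes were also lower in female than in male 2i lines, by 0.35 for Nrm (adjusted p = 0.00352) and 0.30 for Fanci (adjusted p = 0.0413). Without a batch term Fanci differed by −0.49 and was not called (adjusted p = 0.0843).

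The remaining called genes were Capsl, Pstpip2 and Tstd3. Capsl, a calcyphosine-like protein, read 6.93 to 7.35 in EG 2is and 7.44 to 8.08 in ES 2i lines, with a difference of −0.70 (SE 0.11, limma adjusted p = 0.0254). Pstpip2, an F-BAR adaptor protein studied in macrophages, read 5.09 to 5.30 against 5.30 to 5.83, with a difference of −0.50 (SE 0.08, adjusted p = 0.0254). Tstd3, named for its thiosulfate sulfurtransferase-like domain, read 7.10 to 7.77 against 7.43 to 8.32, with a difference of −0.65 (SE 0.11, adjusted p = 0.0376). The groups overlapped for Tstd3 alone of these 3. Without a batch term Tstd3 differed by −0.37 (adjusted p = 0.309) and Capsl by −0.55 (adjusted p = 0.0502), so neither was called. Tstd3 was also lower in female than in male 2i lines, by 0.40 (adjusted p = 0.00705).

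**Figure D1:**
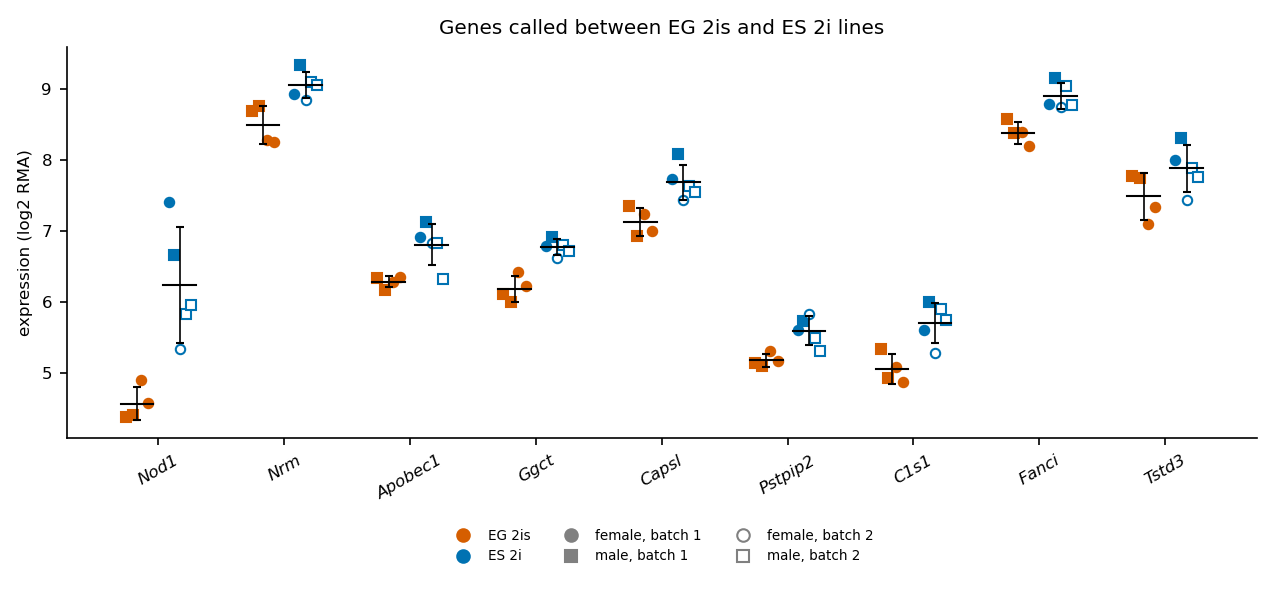
Log2 expression of the 9 called genes in each of the 4 EG 2is lines (orange) and 5 ES 2i lines (blue), with filled symbols for batch 1, open symbols for batch 2, circles for female and squares for male lines. Horizontal bars are group means and vertical bars ± 1 SD. Nod1 stands apart by 2.39 on the fitted scale, and the other 8 genes by 0.50 to 0.76.

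The calls rested on few lines. Leaving out each line in turn gave between 1 call (without ES 2i line 2) and 43 calls (without ES 2i line 3), with 2 without EG 2is line 2, 3 without EG 2is line 4, 14 without EG 2is line 3 and 17 without EG 2is line 1. Nod1 was called in all 9 of these fits, Nrm in 8, Apobec1 in 7, Ggct, Pstpip2 and Fanci in 6, Capsl in 5, C1s1 in 4 and Tstd3 in 2. With only these 2 groups in the fit, 0 genes were called by limma (1759 at an unadjusted p under 0.05), and the adjusted p of Nod1 was 0.0571. On batch 1 arrays alone 8 genes were called, and the adjusted p was 0.0270 for Apobec1, 0.0445 for Nrm and Pstpip2, 0.0516 for C1s1, 0.0623 for Capsl, 0.176 for Ggct and 0.179 for Fanci and Tstd3.

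The interval of each difference shows how large an uncalled difference could be. The median SE was 0.0988, and the 95% confidence interval lay within 2-fold in either direction for 19624 genes (98.4%) and within 1.5-fold for 18004 (90.3%). The median size of the fitted difference was 0.0829. It was 0.104 between EG 2i and ES 2i lines, and 0.127 between EG 2is lines and EG lines in FCS. Arrays correlated at 0.981 to 0.992 between the groups, 0.984 to 0.994 within EG 2is and 0.979 to 0.996 within ES 2i. The median SD of a gene was 0.129 over EG 2is and 0.118 over ES 2i lines. In both groups 3129 genes (15.7%) had a mean at or below 4.76, the highest Eif2s3y reading in a female line, and a change in those may not be measurable.

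**Figure D2:**
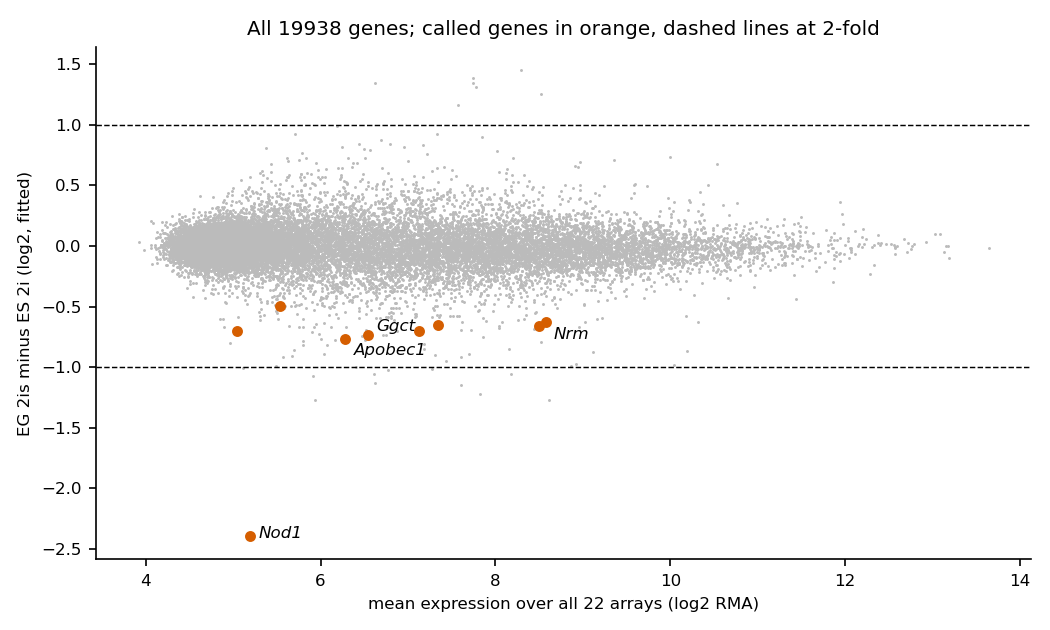
Fitted difference (log2, EG 2is minus ES 2i) against the mean level over all 22 arrays, 1 point per gene. Dashed lines mark 2-fold in either direction, and the 9 called genes, in orange, all lie below 0. Of the 20 genes past 2-fold, 19 were not called.

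No gene was called higher in EG 2is lines in the fit with a batch term. With batch as a random block 30 genes were called higher, and without ES 2i line 3 there were 11. The random block had a within-batch correlation of −0.04. Such a value below 0 treats arrays of the same batch as less alike than others. It thus allowed for no shift between batches. The block called 63 genes, against 33 without a batch term, and its calls are no separate check from that fit. Lines did not overlap between the groups for 657 genes (3.3% of all), 240 higher in EG 2is (1.2%) and 417 lower (2.09%). Predicted genes and clones without a described name were passed over in ranking them. The largest difference among the rest of the 240 was 0.82 for Slc43a1, a transporter of large neutral amino acids (adjusted p = 0.0904). Entpd3, an ectonucleotidase, came next with 0.81 (adjusted p = 0.0646). Slc43a1 read 6.99, 7.32, 6.33 and 6.97 in EG 2is and 5.86, 6.13, 5.80, 6.08 and 6.32 in ES 2i lines, so EG line 3 and ES line 5 were almost level. Without a batch term the adjusted p was 0.0269 for Slc43a1 and 0.0253 for Entpd3, and both were also called with batch as a random block and without EG 2is line 3. Entpd3 read 6.40, 6.27, 5.52 and 5.57 against 5.16, 5.00, 5.07, 5.27 and 5.17. The 2 male EG lines were the high ones. The next 8 were Igdcc3 (0.68), the ephrin ligand Efna3 (0.65), the ETS transcription factor Elf3 (0.65), Smoc1 (0.64), Zcchc24 (0.60), the ubiquitin ligase Rnf216 (0.59), Ttc39c (0.57) and Mgat4b (0.55), with adjusted p from 0.0646 to 0.469. Of uncalled genes without overlap, Cnn2, the actin-binding calponin, had the largest difference downward, −1.05 (adjusted p = 0.121), with EG lines at 6.19 to 7.09 and ES lines at 7.21 to 8.51.

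Differences past 2-fold that were not called came with wide spread among lines. Lefty2 encodes a secreted antagonist of Nodal signalling and had the highest fitted difference of all genes, 1.45 (SE 0.52, adjusted p = 0.377). Without a batch term its difference was 0.86. It read 9.05, 7.93, 9.06 and 8.79 in EG 2is lines and 7.53, 6.47, 10.30, 6.67 and 7.98 in ES 2i lines. ES line 3 exceeded every EG line. Its relative Lefty1 behaved alike, with ES line 3 at 9.56, the other ES lines at 5.11 to 7.19 and EG lines at 6.37 to 8.23. The other 8 of the 10 measured Nodal pathway genes, among them Nodal itself (0.18) and its co-receptor Tdgf1 (−0.19), differed by −0.21 to 0.18. Ccl25, a chemokine, differed by −1.27 (adjusted p = 0.0646), with ES line 3 at 5.75 inside the EG range of 5.52 to 5.83 and the other ES lines at 6.59 to 7.44. For Ccn1, a matricellular protein, the difference was −1.27 (adjusted p = 0.280), with the male EG lines at 6.21 and 6.62, the female EG lines at 7.69 and 8.09, and ES lines at 7.83 to 8.33. Uncalled differences past 2-fold also included Adgre5 (1.26) and Dpp4 (1.16), both cell surface proteins, with adjusted p of 0.207 and 0.184.

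Markers of pluripotency were high in both groups. Of 9 markers (Pou5f1, Nanog, Sox2, Esrrb, Zfp42, Tdgf1, Dppa5a, Fgf4 and Sall4), 0 were called and 0 lay at background. Since 0.0451% of all genes were called, a count of 0 in this or any other list tells nothing about its members, and the intervals are given for that reason. Their mean over the 9 was 10.89 to 11.03 in the EG 2is lines and 10.90 to 11.01 in the ES 2i lines, and the median difference was 0.00. Pou5f1 read 11.5 to 11.7 in EG 2is and 11.4 to 11.7 in ES 2i lines, and the 95% confidence interval of its difference of 0.00 ran from −0.14 to 0.15. For Nanog the interval was wider, from −0.37 to 0.38, around 0.00. Sox2 differed by 0.15 (−0.02 to 0.33). In another list, of 12 core pluripotency genes, 0 were called, with a median of −0.02. At an unadjusted p under 0.05 in limma, Dppa2 was higher, by 0.45, and Utf1 and Lin28a were lower, both at −0.63. Their adjusted p were 0.395, 0.184 and 0.510. Utf1 was called with batch as a random block but not without a batch term (limma adjusted p = 0.0534). Lin28a lines did not overlap, at 5.69 to 6.37 in EG 2is and 6.39 to 7.86 in ES 2i. Among the 11 naive factors 0 were called, with a median of 0.15 and a range from −0.31 for Tbx3 to 0.42 for Gbx2. Klf4 differed by −0.16 and Prdm14 by 0.30. Esrrb, a nuclear receptor that sustains the naive state, read 9.90 to 10.08 in EG 2is and 9.83 to 9.90 in ES 2i lines. These ranges did not overlap, while the fitted difference was 0.08 (adjusted p = 0.885).

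Germ cell genes were compared because EG lines descend from germ cells. Of 12 genes of primordial germ cells 0 were called (0.0451% of all genes), with a median of 0.07 and a range from −0.30 for Dnd1 to 0.30 for Prdm14. Among 18 germline genes known to be silenced by DNA methylation 0 were called, with a median of 0.05. Dazl, which binds RNA in germ cells, differed most, by 0.54 (95% confidence interval −0.06 to 1.14, adjusted p = 0.592). It read 8.45, 9.34, 9.86 and 10.36 in EG 2is lines and 9.18, 8.30, 9.20, 8.70 and 8.01 in ES 2i lines. Female lines were higher than male lines in 2i by 0.85 (adjusted p = 0.0265). Ddx4, a germ cell helicase, read 5.86 to 7.67 and 6.26 to 6.78 and differed by 0.05.

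Of 7 DNA methylation writers and their partners 0 were called, beside 0.0451% of all genes, and their median was −0.06. Dnmt1, the maintenance methyltransferase, differed by −0.02 (95% confidence interval −0.18 to 0.14), and its recruiting partner Uhrf1 by 0.08 (−0.09 to 0.26). The intervals of the de novo enzymes were wider. Dnmt3a differed by 0.27 (−0.42 to 0.97) and Dnmt3b by −0.12 (−0.68 to 0.44). Dnmt3l, the catalytically inactive cofactor of the de novo enzymes, differed by −0.99 (−2.15 to 0.16, adjusted p = 0.610). EG 2is lines read 6.83, 6.49, 7.72 and 6.79, and ES 2i lines 6.57, 8.001, 7.47, 9.95 and 9.79. ES lines 4 and 5, both male and of batch 2, held the high values, and on batch 1 arrays alone the difference was −0.33. Of 10 measured genes of the TET and demethylation list, 1 was called, Apobec1, and that 1 gene is no result about the list. Tet1, a dioxygenase that oxidizes 5-methylcytosine, differed by −0.10 and Tet2 by −0.24.

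Of 22 imprinted genes, which are read from 1 parental allele and depend on methylation, 0 were called. Their fitted differences spread from −0.98 for Peg10 to 0.68 for Impact around a median of 0.02. The interval lay within 2-fold for 13 of the 22, against 98.4% of all genes. Peg10, a retrotransposon-derived gene, read 7.23 and 6.63 in the male EG lines and 10.38 and 9.75 in the female ones, and 8.43 to 10.73 in ES 2i lines, and on batch 1 arrays alone its difference was −0.34. Impact read 10.60 to 10.85 in EG 2is lines, while ES lines read 10.46, 9.70, 10.86, 9.75 and 9.79 (adjusted p = 0.0906). Its 2 high ES lines were the female ones. Peg3 differed by 0.59 (0.38 without a batch term), Ndn by 0.58, Phlda2 by −0.85, Cdkn1c by −0.67 and Slc22a18 by −0.67.

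Signalling targets were compared because the inhibitors in 2i act on their pathways. Among 20 targets of ERK, the pathway blocked by PD0325901, 0 were called (0.0451% of all genes), with a median of 0.10 and a range from −0.49 for Fos to 0.51 for Dusp1. Of 12 measured Wnt targets, which CHIR99021 acts on, 0 were called (median 0.09), and Notum, a Wnt-inactivating enzyme, differed by 0.93 (adjusted p = 0.270). The 9 BMP-SMAD targets (median 0.05) ran from −0.75 for Id2 to 0.69 for Dusp9, and the 10 LIF-STAT3 targets (median −0.07) from −0.43 for Socs3 to 0.42 for Gbx2, with 0 called in either. Over all 19938 genes the median was −0.00. Polycomb genes (12), Hox cluster genes (21 measured), glycolysis (11), cholesterol synthesis (13) and proliferation (13) also had 0 called members. In the list of interferon and innate immunity genes, 1 of 11 was called, Nod1, and that 1 gene is no result about the list. All lists had been chosen with earlier results of these data known.

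**Figure D3:**
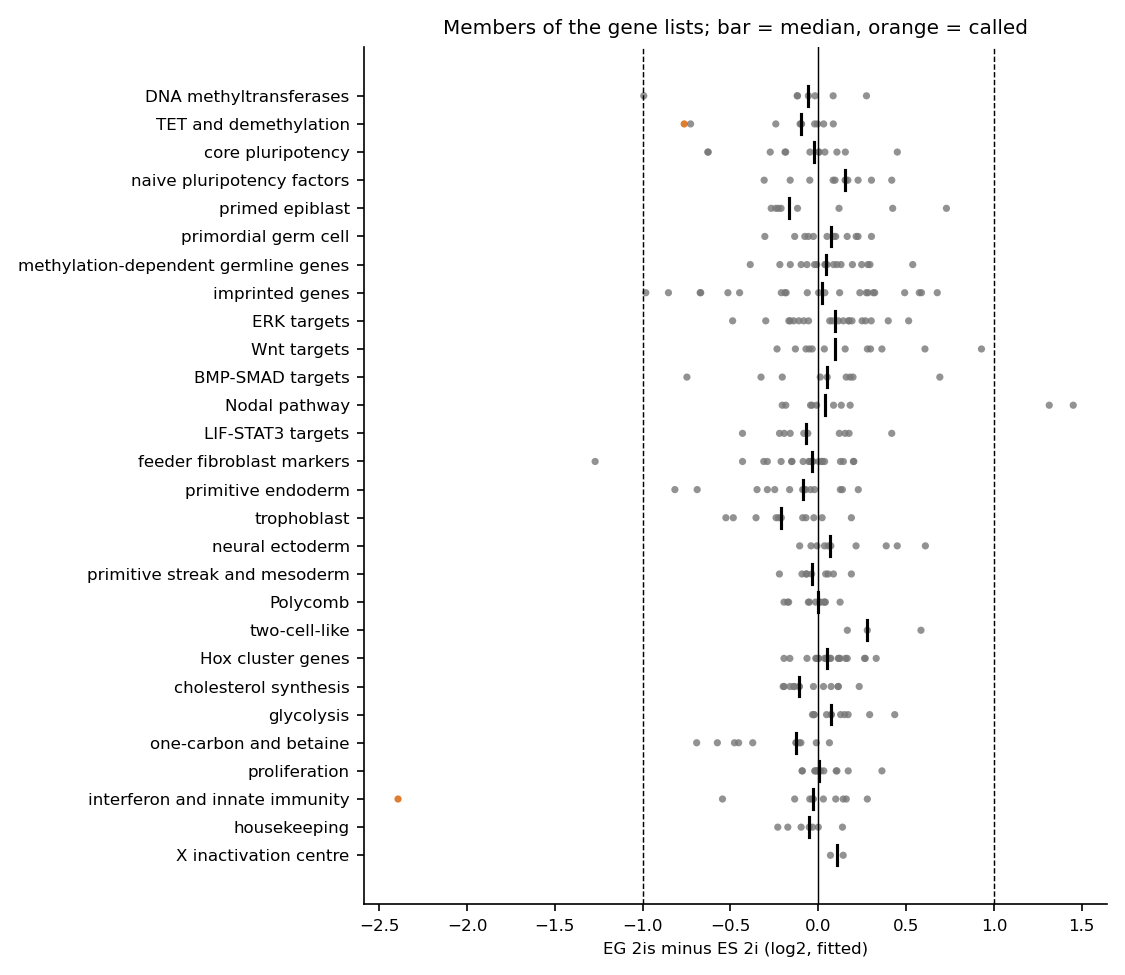
Fitted difference (log2, EG 2is minus ES 2i) of each measured member of 28 gene lists, with a black bar at each list's median and dashed lines at 2-fold. Only 2 members, Apobec1 and Nod1, were called (orange), and list medians lay between −0.21 and 0.28.

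Markers of other cells were compared because cultures can hold them. The mean of 13 feeder fibroblast markers was 5.81 to 6.01 in EG 2is lines and 5.78 to 5.999 in ES 2i lines, with 0 called and 4 at background in each group. In lines on feeders it was 6.68 to 7.54 (EG) and 6.71 to 7.46 (ES). Acta2, smooth muscle actin, read 4.79 to 5.23 in EG 2is and 4.89 to 5.45 in ES 2i lines, against means of 9.52 and 9.19 in FCS. Of 11 primitive endoderm markers 0 were called. Dab2, an endocytic adaptor among them, read 5.20 to 5.62 in EG 2is lines but 4.51 to 7.33 in ES 2i lines (difference −0.82, adjusted p = 0.574, and −0.54 on batch 1 arrays alone). The trophoblast markers (8), the neural markers (5 measured of 6) and the mesoderm markers (5 measured of 6) also gave 0 calls. The neural markers had a median difference of 0.39, and their mean was 5.48 to 5.67 in EG 2is and 5.17 to 5.59 in ES 2i lines. Among them Sox1 differed by 0.06 and Map2 by −0.01. A longer list of neural ectoderm genes, 10 of them measured, had a median of 0.06, from −0.11 for Neurog2 to 0.61 for Nes. Nes, an intermediate filament of neural progenitors, differed by 0.61 (95% confidence interval 0.19 to 1.03, adjusted p = 0.308). Tubb3, a neuronal tubulin, differed by 0.45 (0.07 to 0.83, adjusted p = 0.433). Pax6, a transcription factor of neural progenitors, differed by 0.39 (0.09 to 0.69, adjusted p = 0.389), and its lines did not overlap, at 5.23 to 5.40 and 4.81 to 5.09. Their part in the other results was not tested. In a bulk sample, fewer cells of a type and less RNA per cell cannot be told apart.

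EG lines derived directly in 2i gave the nearest comparison. Against the same 5 ES 2i lines, 742 genes were called for EG 2i (3.72% of all), 240 higher (1.2%) and 502 lower (2.52%), beside 9 for EG 2is, and the 2 counts share those ES lines. Leaving out 1 line gave 301 (without EG 2i line 3) to 872 calls (without ES 2i line 3), with 339 without ES 2i line 1 and 460 without ES 2i line 2, and batch 1 arrays alone gave 201. The groups also differ in sex, with 3 female and 1 male EG 2i lines, 2 and 2 EG 2is lines, and 2 and 3 ES 2i lines. Both fits used 1 sex term for FCS and 2i together. The part of sex in the 2 counts was not tested. Between EG 2is and EG 2i lines themselves, limma called 0 genes, with 2116 at an unadjusted p under 0.05 (10.6%) and a smallest adjusted p of 0.137. Fitted differences of at least 2-fold numbered 15 (8 higher and 7 lower in EG 2is), and the interval lay within 2-fold for 19738 genes (99.0%). The switched and the directly derived lines were thus not shown to differ in any gene. Aldh1l1, a folate enzyme, and Acss1, a mitochondrial acetyl-CoA synthetase, were among the genes closest to a call. Aldh1l1 read 8.07 on average in EG 2is and 6.78 in EG 2i lines, a difference of 1.23, and Acss1 read 8.54 and 7.41, a difference of 1.14. Against ES 2i lines Aldh1l1 differed by −0.14 in EG 2is and −1.37 in EG 2i.

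The differences of the 9 called genes are given for both sets of EG lines side by side, and both subtract the same 5 ES 2i lines. For EG 2is and EG 2i in turn they were −2.39 and −2.47 for Nod1, −0.63 and −0.60 for Nrm, −0.76 and −0.62 for Apobec1, and −0.73 and −0.66 for Ggct. They were −0.70 and −0.96 for Capsl, −0.50 and −0.47 for Pstpip2, −0.70 and −0.78 for C1s1, −0.66 and −0.79 for Fanci, and −0.65 and −0.61 for Tstd3. In FCS, where the comparison uses other arrays, 2 genes were called between EG and ES lines (0.01%), Nod1 and Gbp2b, both lower in EG. There Ggct differed by −0.65, and the other 7 by −0.25 for Capsl to 0.21 for Apobec1 and Pstpip2, none of these 8 called. C1s1 averaged 4.69 in EG and 4.74 in ES lines in FCS, below the highest female reading of Eif2s3y. A difference of C1s1 in FCS may therefore not be measurable. ES lines of the same number carry the same sex and batch labels in FCS and in 2i. Whether they are the same line in 2 media is not given. The main fits, that of the interaction included, did not pair them, so the FCS values may not be separate evidence.

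**Figure D4:**
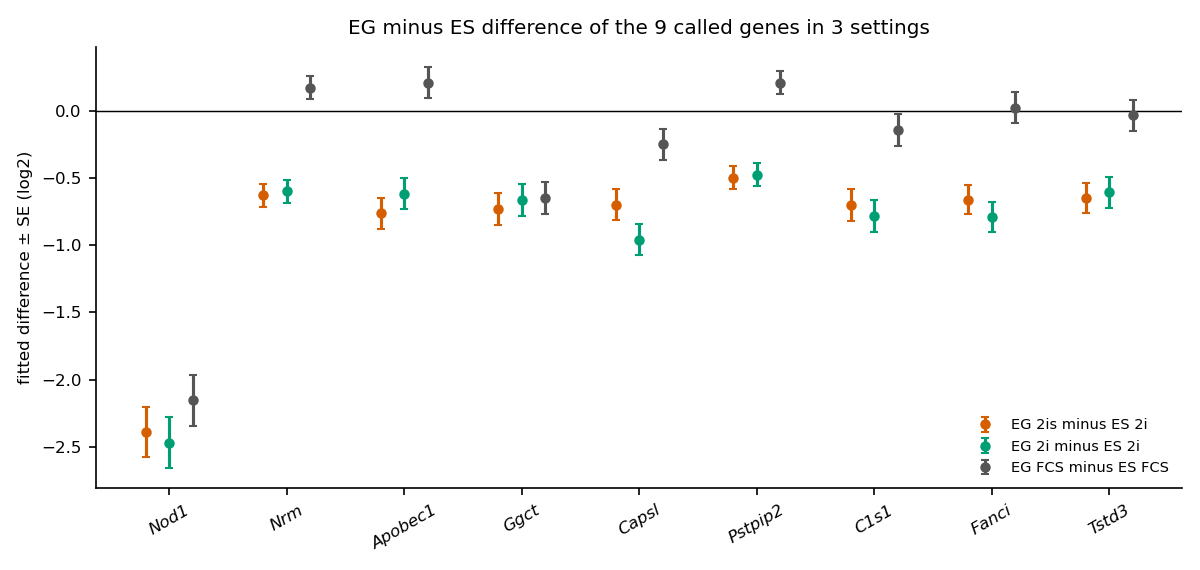
Fitted EG minus ES differences (log2, points, with bars of ± 1 SE) of the 9 called genes for EG 2is against ES 2i, EG 2i against ES 2i, and EG against ES in FCS. The first 2 share the 5 ES 2i lines. Nod1 lies between −2.15 and −2.47 in all 3, while Nrm, Apobec1 and Pstpip2 lie above 0 in FCS. In FCS both group means of C1s1 were below the highest female reading of Eif2s3y.

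Whether the difference between EG and ES lines was itself another in 2i than in FCS was tested by the interaction of cell origin and culture. Limma called 6 genes (0.0301%), 5 with a lower value in 2i (0.0251%) and 1 with a higher one (0.00502%). At an unadjusted p under 0.05 there were 1799 (9.02%). Of the 6, 3 were genes called in 2i, Apobec1 (−0.97), Nrm (−0.80) and Pstpip2 (−0.71), each at adjusted p = 0.00736. Apobec1 averaged 5.72 ± 0.27 (SD, n = 5) in ES lines in FCS and 6.80 ± 0.29 (SD, n = 5) in ES 2i lines, but 6.17 ± 0.03 (SD, n = 4) in EG lines in FCS and 6.28 ± 0.08 (SD, n = 4) in EG 2is lines. ES lines thus differed between cultures by 1.09 (adjusted p = 5.85e-08) and EG lines by 0.11 (adjusted p = 0.504), where 31.6% and 25.6% of all genes were called. Nrm followed the same course, with 8.27 and 9.06 in ES lines and 8.58 and 8.497 in EG lines. Pstpip2 took another one. EG lines in FCS averaged 5.96 and EG 2is lines 5.17 (−0.81, adjusted p = 3.17e-07), while ES lines averaged 5.69 and 5.59.

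The other 3 genes of this test were Cth, Mvp and Gbp2b. Cth, which makes cysteine from cystathionine, averaged 9.41 and 10.9 in ES lines in FCS and 2i, and 10.0 and 10.4 in EG lines in FCS and 2is (change −1.02, adjusted p = 0.00736). Its own difference in 2i was −0.58 (adjusted p = 0.0678), with EG 2is lines at 10.24 to 10.54 and ES 2i lines at 10.57 to 11.11. Mvp, the major vault protein, changed by −0.85 (adjusted p = 0.0489). Gbp2b, an interferon-induced GTPase, changed by 0.84 (adjusted p = 0.0151). It was lower in EG than in ES lines in FCS by 0.81 (adjusted p = 0.00370) and differed by 0.03 in 2i, where both groups averaged 4.70, below the highest female reading of Eif2s3y. On batch 1 arrays alone this test called 0 genes (1308 at an unadjusted p under 0.05). Leaving out 1 line gave 4 to 25 calls, with 25 without EG 2is line 3, 19 without ES 2i line 3, 18 without ES FCS line 1 and 17 without ES 2i line 2, and Apobec1, Nrm, Pstpip2 and Cth were called in all 18 of these fits.

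Among the 9 EG 2is and ES 2i lines, more genes separated the sexes than the origins. In all 2i lines together, 1031 genes were called between female and male lines (5.17%), 609 higher (3.05%) and 422 lower (2.12%) in female lines. Of 739 X-linked genes 242 were called (32.7%), 241 of them higher in female lines (32.6%) and 1 lower (0.135%). Of 19106 autosomal genes 784 were called (4.1%), 367 higher (1.92%) and 417 lower (2.18%). The count of 1031 uses the EG 2i lines as well, so it is not like for like with the 9 calls for EG 2is against ES 2i. For EG 2i against ES 2i, 742 genes were called. On batch 1 arrays alone that comparison gave 201 calls and sex 207. Xist, the RNA that silences an X chromosome, read 4.69 to 4.80 in EG 2is and 4.38 to 4.95 in ES 2i lines, with female lines no higher than male ones (0.04, adjusted p = 0.932). Among the 9 lines alone, split into 4 female and 5 male, 1291 genes (6.48%) did not overlap between sexes, against 657 (3.3%) between origins, a split of 4 and 5 as well. Of the X-linked genes, 34.2% did not overlap between sexes, 248 higher in female lines and 5 lower, and 14 genes did not overlap between origins. A fit of these 9 lines, with a batch term, called 504 genes for sex and 0 for origin. These 2 counts are not like for like. All EG lines are batch 1, so the batch term takes precision from the comparison of origins, while both batches hold both sexes.

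Predicted genes aside, the X-linked genes that differed most between sexes were Nxf3 (2.18), an RNA export factor relative, Armcx1 (1.90), Usp26 (1.73) and Magea5 (1.61). Nxf3 read 5.93 and 6.19 in male and 8.31 and 8.58 in female EG 2is lines. In ES 2i lines it read 7.09 and 8.40 in female lines and 5.39, 5.58 and 5.62 in male ones. Female lines were thus above male lines in both groups. The autosomal genes were Slc13a5 (2.23), a citrate transporter, the ATP-gated channel P2rx7 (2.10), the MHC class II gene H2-Eb1 (1.89) and the prostaglandin synthase Ptgs2 (1.58), with adjusted p from 0.000141 to 0.0187. Predicted genes again aside, P2rx7 and Slc13a5 were also among the 5 genes with the largest SD over EG 2is lines, with Peg10 and the Y-linked Eif2s3y and Uty. By the same ranking, the 5 most variable over ES 2i lines were Lefty1, Eif2s3y, Uty, Usp26 and Trh, the precursor of thyrotropin-releasing hormone. Trh read 8.67, 6.09, 8.496, 9.45 and 10.51, with male line 2 lowest and male line 5 highest. Batch 1 arrays alone gave 207 calls for sex, and leaving out 1 line gave 586 (without EG 2is line 1) to 1804 (without EG 2i line 1), with 593 without EG 2i line 4 and 603 without EG 2is line 4.

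**Figure D5:**
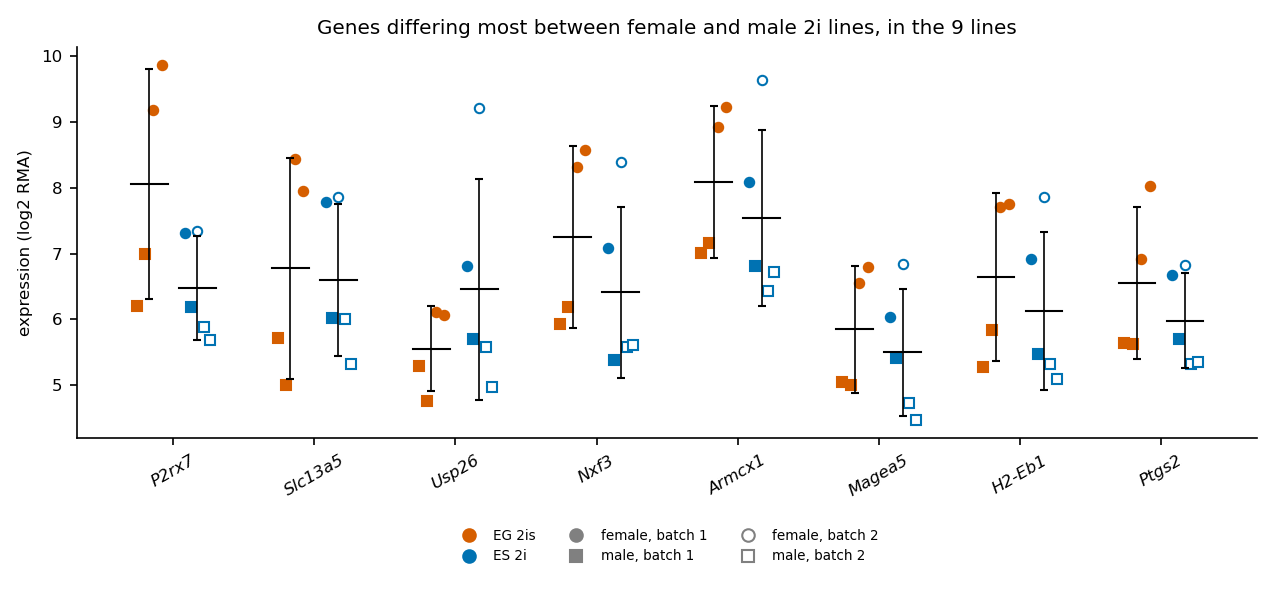
Log2 expression in the 4 EG 2is lines (orange) and 5 ES 2i lines (blue) of the 4 X-linked and 4 autosomal genes with the largest called difference between female (circles) and male (squares) lines in 2i. Predicted genes were passed over. Filled symbols are batch 1 and open symbols batch 2, and bars are group means ± 1 SD. Within both groups every female line lies above every male line of the same group for each of the 8 genes.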

How the data were processed

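Total RNA of 22 samples was hybridised to Affymetrix mouse gene arrays, 1 array per sample. The deposited values are log2 expression per probe set. RMA, limma and Affymetrix Expression Console are named for them in the submitters' processing notes (no version is given in the sources used here). The RMA method corrects background, quantile-normalizes and summarizes probes, so a global shift in RNA per cell would not show. Whether the authors adjusted for batch is not stated. Values ran from 3.63 to 13.9, array medians from 5.54 to 5.62.

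Of 28853 probe sets, 21789 had 1 gene symbol, 1621 several and 5443 none, and 21698 matched the table of assembly GRCm38.p6 by Entrez ID (0 symbols updated). Where a gene had several probe sets, the one brightest on average was kept and 1851 others were dropped, leaving 19938 genes. All 22 arrays were fitted with limma 3.58.1 in R 4.3.3 (lmFit, eBayes) with terms for group, batch and sex. The sex comparison used a sex term in each culture. Tests are two-sided, with Benjamini-Hochberg adjustment over all genes. The batch term rests on ES lines alone, since all EG arrays are batch 1, so it cannot be told apart from differences between ES lines. The fits were tested on simulated data. Those data held no batch effect and gave a gene the same spread in every group, so they could not test either. Number of arrays, not depth, limits precision. Python 3.11.15 and matplotlib 3.10.9 made summaries and figures.

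The groups, gene lists and named genes were chosen with earlier results of these data known. Named genes are all called genes, the largest uncalled differences without overlap until 10 stood in each direction, 2 members of each list by unadjusted p, a set of pluripotency and methylation genes, neighbours of called genes, the 5 most variable genes per group and the 4 largest X-linked and autosomal genes for sex. Predicted genes and clones without a described name were passed over where genes were ranked or named as neighbours. Genes past 2-fold, Cth, Mvp, Gbp2b, Aldh1l1, Acss1 and further list members were named after their values were seen. Older list symbols were updated through RefSeq synonyms (Peg1, Ctgf and Cyr61). Alternatives were 11 other settings of batch, sex, normalization, filter, probe set, prior, samples and replicate block, and leaving out each line. The replicate numbers of EG 2is and ES 2i lines were not used to pair samples in the main fits. Deviations of same-numbered lines correlated at −0.31, 0.23, 0.17 and −0.23, and those of other pairs at −0.42 to 0.29. The same-numbered pairs at −0.31 and −0.23 join lines of unlike sex. These values therefore cannot show whether the numbers pair samples.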

Additional observations from a re-analysis of the deposited data

Results flagged for a closer look

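In 7 of 218 groups of lines checked, a single line lay far from the others. Chance flags about 1 in 20 such groups. In EG 2is line 1, Socs3, a feedback inhibitor of LIF signalling, read 6.80 and the glycolytic gene Pfkp 10.5. In EG 2is line 2, Mdc1 read 8.81, Polg 7.54 and Usp17la 6.16. EG 2is line 3 read 5.06 for Ascl2, and ES 2i line 1 read 7.75 for the glycolytic gene Pfkl.

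The difference between EG and ES lines differed between 2i and FCS, by limma's interaction test, for Apobec1 (−0.97), Cth (−1.02), Pstpip2 (−0.71), Nrm (−0.80), Gbp2b (0.84) and Mvp (−0.85). Outside the genes analysed above, 7064 probe sets without a single gene symbol were tested in the same fit for EG 2is against ES 2i, and 2 were called, 1 higher and 1 lower in EG 2is lines.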

How the results depend on the processing

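The 9 calls between EG 2is and ES 2i became 33 without a batch term (18 higher, 15 lower), 63 with batch as a random block (30 higher, 33 lower), 0 with only these groups in the fit (1759 at an unadjusted p under 0.05) and 4 without a sex term. Leaving out 1 line gave 1 to 43. With only their own groups, EG 2is against EG 2i gave 1 call in place of 0, and leaving out 1 line gave 0 throughout (0 to 0). The 6 calls for the change between FCS and 2i became 0 on batch 1 arrays, and 4 to 25 when a line was left out. The 1031 calls for sex became 207 on batch 1 arrays, 484 with only the groups compared, 656 with a replicate block, 504 in the 9 lines (chosen after seeing the data) and 586 to 1804 when a line was left out. Centring arrays on their medians gave 1080 for sex, 776 higher and 304 lower. With the replicate number as a block, EG 2is against ES 2i gave 7 calls, and the interaction 6. Of 2164 recomputed named-gene values, 0 called values reversed, 63 lost the call and 21 gained it. The cause of these shifts was not tested.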
